A study of Mus musculus with 37 samples.

Results

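The BCL2 family genes described here are the survival genes Bcl2, Bcl2l1 and Mcl1, the effector genes Bax and Bak1, and the BH3-only genes Bcl2l11, Bbc3, Pmaip1, Bid and Bad. They were taken by gene name from the deposited count and TPM tables, where they are 10 of 23170 listed genes, and all 10 were among the 12774 genes that passed the filter on low counts. The study followed mouse bone-marrow-derived macrophages in culture toward osteoclasts, the bone-resorbing cells that form from macrophage precursors. WT cells and cells labelled KO for Arid1a, a DNA-binding subunit of a BAF chromatin remodelling complex, were each collected at day 0, day 2 and day 4 of that culture, and each of these 6 groups held 2 RNA-seq libraries. All groups carry the same treatment label, osteoclastic differentiation, at day 0 as well. The labels name no Cre driver, no allele, no age and no cytokine dose, and they do not say whether replicates came from separate mice or cultures, so the p-values measure only the spread between these libraries, which may be technical.

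Proteins of this family decide at the outer mitochondrial membrane whether a cell releases cytochrome c and activates caspases. BCL2, BCL-XL (the product of Bcl2l1) and MCL1 hold back the effectors BAX and BAK, which can form pores, while BH3-only proteins such as BIM (Bcl2l11), PUMA (Bbc3), NOXA (Pmaip1), BID and BAD bind the survival proteins or the effectors and carry stress signals to them. In osteoclasts, which are short-lived cells, mouse work has tied BCL-XL to survival and BIM to death. Only mRNA was measured here, and much of the control of MCL1, BIM, BID and BAD acts on the protein.

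Library totals ran from 16282164 to 18608353 counts. Levels are CPM, counts divided by the TMM-scaled library size, unless TPM, which also divides by transcript length, is named. Arid1a stood at 242 and 197 CPM in the WT libraries of day 0 and at 94.6 and 104 CPM in the KO libraries, at 169 and 175 against 118 and 117 CPM at day 2, and at 164 and 135 against 84.7 and 98.0 CPM at day 4. It was lower in both KO libraries at each day, by log2 fold changes of -1.15, -0.54 and -0.71 with edgeR adjusted p of 0.0141, 0.0613 and 0.00793, so Arid1a mRNA remained in the KO libraries and the difference of day 2 did not pass the threshold of 0.05. The summed level of 10 osteoclast markers was 15706 and 20287 CPM in WT at day 4 and 4596 and 1672 CPM in KO at day 4, where the KO replicates stood apart from each other. The summed level of 10 macrophage markers was 2682 and 2790 CPM in WT and 3035 and 4734 CPM in KO at day 4. The median log2 fold change of these 10, KO against WT at day 4, was 2.62, and that of all tested genes -0.03. Lyz2, a macrophage marker, was at 41319 and 36018 CPM in WT at day 0 and at 36.4 and 49.2 CPM in KO at day 0. The 10 macrophage markers, Lyz2 among them, summed to 55534 and 51002 CPM in WT at day 0 and 12356 and 13264 CPM in KO. That WT sum was thus mostly Lyz2. Stromal and osteoblast markers summed to 202 and 2254, 3678 and 4558, and 594 and 689 CPM in the WT libraries of days 0, 2 and 4, and to 2688 and 1150, 3367 and 884, and 708 and 26.9 CPM in those of KO. Summed levels of 4 megakaryocyte markers, mostly Pf4, ran from 10.4 to 823 CPM. The neutrophil, B cell, T and NK cell, dendritic cell, mast cell and erythroid lists stayed at or under 23.97 CPM in every library, with Ly6g, Pax5 and Cpa3 at 0 counts in all. The part of these shifts in the results below was not tested, and in bulk RNA fewer cells of a type and less RNA per cell cannot be told apart.

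RefSeq promoter sequences of GRCm38.p6 were at hand for 9 of the 10 genes; Pmaip1 had no entry. Shown are the 250 bases before the first-listed start of the 4 genes with an entry that were called higher in KO at day 4. Capitals mark matches on either strand to AP-1 (TGANTCA), FOXO (GTAAACA) or the E-box CANGTG, none of which contains another.
Bcl2l1 promoter (chr2:152828490-152828739, - strand): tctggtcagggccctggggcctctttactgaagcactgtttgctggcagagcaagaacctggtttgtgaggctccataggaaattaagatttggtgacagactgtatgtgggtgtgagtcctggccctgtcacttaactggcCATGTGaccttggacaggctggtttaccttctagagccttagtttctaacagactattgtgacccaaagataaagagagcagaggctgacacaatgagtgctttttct
Bcl2l11 promoter (chr2:128125788-128126037, + strand): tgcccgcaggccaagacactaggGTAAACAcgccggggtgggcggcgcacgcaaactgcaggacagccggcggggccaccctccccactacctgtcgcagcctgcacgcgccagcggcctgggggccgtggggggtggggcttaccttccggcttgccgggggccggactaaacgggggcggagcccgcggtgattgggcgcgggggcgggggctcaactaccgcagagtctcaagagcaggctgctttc
Bcl2 promoter (chr1:106714291-106714540, - strand): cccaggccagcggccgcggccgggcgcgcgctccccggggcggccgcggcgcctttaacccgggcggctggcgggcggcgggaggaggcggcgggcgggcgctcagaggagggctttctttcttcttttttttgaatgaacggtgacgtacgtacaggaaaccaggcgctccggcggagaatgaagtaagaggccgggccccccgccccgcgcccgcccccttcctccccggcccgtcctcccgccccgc
Bax promoter (chr7:45466899-45467148, - strand): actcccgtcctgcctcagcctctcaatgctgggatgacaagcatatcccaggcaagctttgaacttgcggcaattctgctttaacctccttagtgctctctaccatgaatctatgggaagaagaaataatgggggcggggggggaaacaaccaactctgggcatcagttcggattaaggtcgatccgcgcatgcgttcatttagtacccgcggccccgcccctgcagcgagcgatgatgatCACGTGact
The GTAAACA in the Bcl2l11 window lies in a promoter with 72.0% G and C, and such a match occurs in 3.09% of the 27025 first-listed promoter windows of the same length. The later-listed Bcl2l11 window has no such match. A later-listed window of Bbc3, for which no KO difference was called, has 1. The CANGTG match in the Bcl2l1 and Bax windows occurs in 39.4% of them. The Bcl2 window holds none of the 3 motifs in capitals, has 74.8% G and C and holds 36 CG pairs, whereas the first Bcl2l1 window has 48.4% G and C and no CG pair. The later-listed Bcl2l1 windows hold 11 and 12 CG pairs, where the median of all first-listed windows is 6. Neither TGANTCA, found in 6.87% of all windows, nor the cAMP response element TGACGTCA, found in 1.62%, occurred in any of the 15 windows of the 9 genes, some of which overlap. The matches describe these letters only, since binding was not measured in the data used here.

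The level of each mRNA set the scale for these comparisons. By TPM averaged over the 12 libraries, Mcl1 was the highest of the 10 at 408 TPM, followed by Bax at 246, Bak1 at 75.1, Bcl2l11 at 61.3, Bad at 51.0, Bcl2l1 at 43.9, Pmaip1 at 30.9, Bid at 23.7, Bbc3 at 16.4 and Bcl2 at 1.503 TPM. Mcl1 made up 84.1% to 95.5% of the summed TPM of the 3 survival genes in the individual libraries, and Bcl2 never more than 0.741%. The Bcl2a1 genes, further survival genes of the family, are not in that sum. They made up 16.1% to 39.6% of the summed TPM of all listed survival genes. Over the 6 group means in CPM, Pmaip1 ranged most, 10.2-fold from WT day 4 to KO day 2, and Bad least, 1.35-fold.

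**Figure D1:**
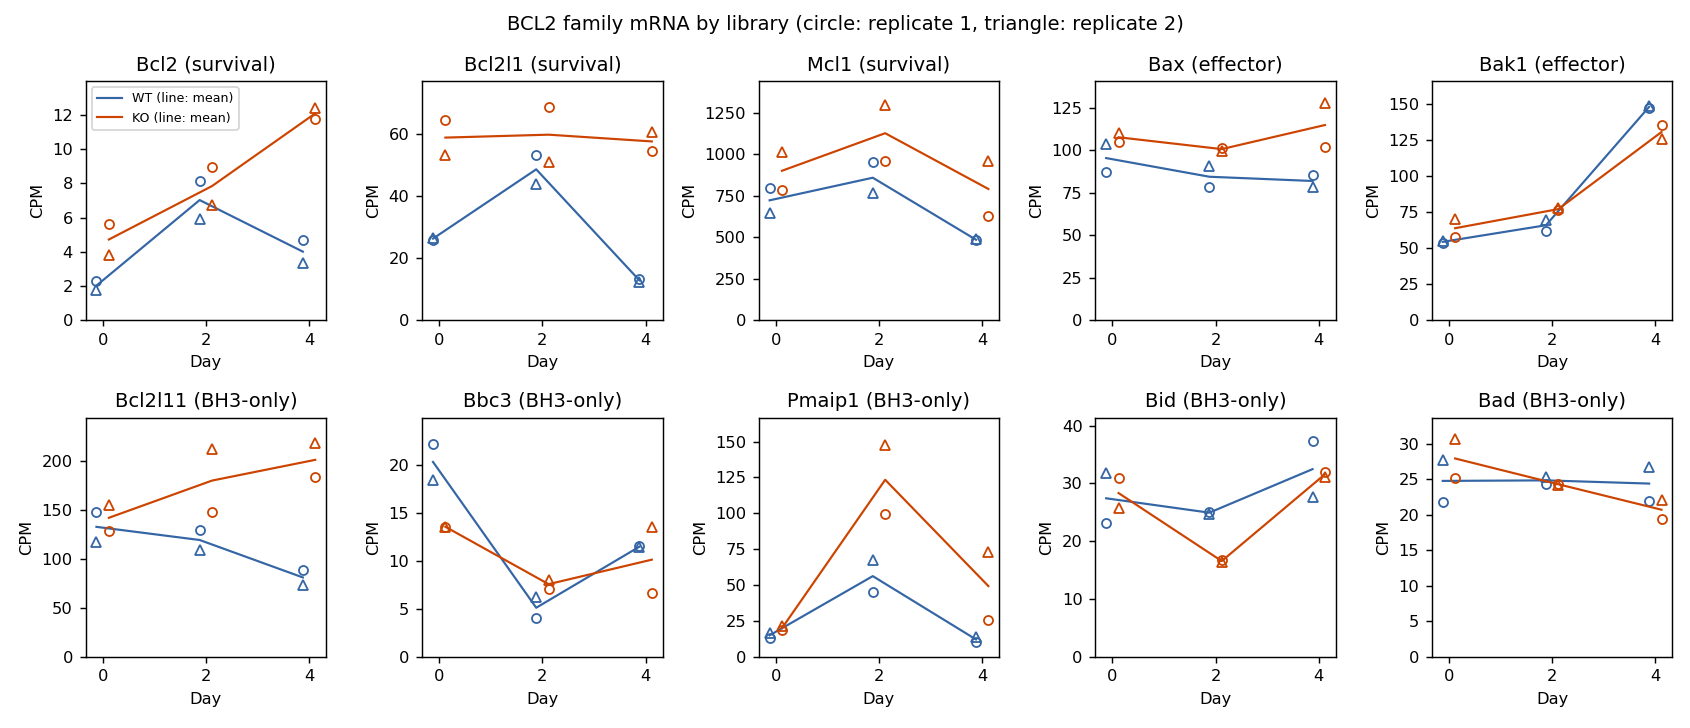
Level of each of the 10 BCL2 family mRNAs (y axis, CPM, from 0) by day of culture (x axis) in WT (blue) and KO (orange); circles are replicate 1, triangles replicate 2 and lines join the means of 2 libraries. Bcl2l1 lies between 51.0 and 68.6 CPM in all 6 KO libraries, while in WT it is highest at day 2 and lowest at day 4.

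Bcl2l1 had the smallest adjusted p of the 10 genes between the genotypes at days 0 and 4. In WT it was at 25.9 and 26.6 CPM at day 0, 53.3 and 44.0 CPM at day 2, and 13.4 and 12.3 CPM at day 4. In KO it was at 64.4 and 53.3 CPM at day 0, 68.6 and 51.0 CPM at day 2, and 54.6 and 60.6 CPM at day 4. The 3 WT groups did not overlap with each other, whereas the 3 KO groups all overlapped. At day 0 the KO level was 2.24-fold the WT level (log2 fold change 1.16 ± 0.17 SE, adjusted p = 0.0226, edgeR quasi-likelihood F test), the only call among the 10 genes at that day, where 1.58% of all tested genes were called. That call was lost when any one of the 4 day 0 libraries was left out, with adjusted p of 0.119 without WT replicate 1, 0.052 without WT replicate 2, 0.132 without KO replicate 1 and 0.114 without KO replicate 2. At day 4 Bcl2l1 was 4.49-fold higher in KO (log2 fold change 2.17 ± 0.18, edgeR adjusted p = 0.000392), and the call held with each library left out. At day 2 the groups overlapped (0.30 ± 0.17, edgeR adjusted p = 0.306).

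Over time in WT, Bcl2l1 rose 1.85-fold from day 0 to day 2 (log2 fold change 0.89 ± 0.17, edgeR adjusted p = 0.0118) and then fell 3.79-fold from day 2 to day 4 (-1.92 ± 0.18, edgeR adjusted p = 8.57e-05). The rise was lost without WT day 0 replicate 1 (adjusted p = 0.0575, edgeR) or WT day 2 replicate 1 (0.0859). Its KO level changed by -0.03 ± 0.17 on the log2 scale from day 0 to day 4 (edgeR adjusted p = 0.891), a difference within the replicate spread. The KO effect on Bcl2l1 was larger at day 4 than at day 0 by 1.005 ± 0.24 on the log2 scale (the interaction term, edgeR adjusted p = 0.0391), in a comparison where 8.56% of tested genes were called and 2 of the 10 members, Bcl2l1 and Bcl2l11. With libraries left out one at a time, its adjusted p in edgeR ran from 0.0225 to 0.15.

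Mcl1, the most abundant of the survival mRNAs by TPM, was at 796 and 647 CPM in WT at day 0, 949 and 765 CPM at day 2, and 480 and 488 CPM at day 4. Its KO levels were 785 and 1014 CPM, then 959 and 1292 CPM, then 624 and 955 CPM. The genotypes overlapped at day 0 and did not at days 2 and 4, yet no KO difference was called: at day 4 it was 0.71 ± 0.24 on the log2 scale (edgeR adjusted p = 0.0644), and DESeq2 gave an adjusted p of 0.0252. Mcl1 fell in WT from day 2 to day 4 by 0.83 ± 0.24 on the log2 scale (edgeR adjusted p = 0.0209). That call was lost without WT day 2 replicate 1 (adjusted p = 0.115, edgeR), WT day 4 replicate 1 (0.0943) or WT day 4 replicate 2 (0.085).

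Bcl2 was scarce, with 32 to 230 counts per library. Its WT levels were 2.27 and 1.77 CPM at day 0, 8.16 and 5.90 CPM at day 2, and 4.68 and 3.33 CPM at day 4. Its KO levels were 5.64 and 3.80 CPM at day 0, 8.94 and 6.75 CPM at day 2, and 11.8 and 12.4 CPM at day 4. Both KO libraries lay above both WT libraries at days 0 and 4, and the genotypes overlapped at day 2. At day 4 Bcl2 was 3.02-fold higher in KO (log2 fold change 1.59 ± 0.31, edgeR adjusted p = 0.00791), a call lost without WT day 4 replicate 2 (adjusted p = 0.0759). The day 0 difference of 1.22 ± 0.32 was not called by edgeR (adjusted p = 0.116) and was by DESeq2 (0.0408). In WT, Bcl2 rose 3.48-fold to day 2 (edgeR adjusted p = 0.0095, 0.0657 without WT day 2 replicate 1) and was still 1.98-fold above day 0 at day 4 (0.0275). The latter call was lost without WT day 0 replicate 1 (adjusted p = 0.0508, edgeR), WT day 0 replicate 2 (0.126) or WT day 4 replicate 1 (0.162). In KO it rose 2.56-fold from day 0 to day 4 (edgeR adjusted p = 0.00782), and this was lost without KO day 0 replicate 2 (0.0657).

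Of the pore-forming effectors, Bak1 rose during culture in both genotypes, whereas no change over time was called for Bax. Bak1 was at 53.9 and 54.9 CPM in WT at day 0, 62.0 and 69.9 CPM at day 2, and 147 and 149 CPM at day 4. The KO libraries gave 57.5 and 70.2 CPM, then 76.7 and 77.6 CPM, then 136 and 126 CPM. Day 4 was the highest group in both genotypes, with no overlap with the earlier days. Bak1 rose from day 0 to day 4 by 2.73-fold in WT (log2 fold change 1.45 ± 0.12, edgeR adjusted p = 2.32e-05) and by 2.05-fold in KO (1.03 ± 0.11, edgeR adjusted p = 0.000237), and both calls held with each library left out. Both KO libraries exceeded both WT libraries at days 0 and 2 and were under them at day 4, by 0.23 ± 0.11, 0.23 ± 0.11 and -0.18 ± 0.11 on the log2 scale, and none of these was called.

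Bax was at 87.0 and 104 CPM in WT at day 0, 78.3 and 90.6 CPM at day 2, and 85.7 and 78.2 CPM at day 4, against 105 and 110.5 CPM, 102 and 99.9 CPM, and 102 and 128 CPM in KO. The KO libraries had the higher levels at each day, without overlap. At day 4 Bax was 1.40-fold higher in KO (log2 fold change 0.49 ± 0.14, edgeR adjusted p = 0.0341). This is the weakest of the day 4 calls: it was lost when any of 8 libraries was left out, among them 3 of the 4 day 4 libraries, with adjusted p in edgeR of up to 0.197 without KO day 4 replicate 2. On log2(TPM + 1) with limma its adjusted p was 0.0741. The TPM of Bax was 5.27 and 5.66 times that of Bak1 in WT at day 0, 1.93 and 1.60 times at day 4 in WT, and 2.47 and 3.13 times at day 4 in KO.

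Bcl2l11, which encodes BIM, was at 148 and 117 CPM in WT at day 0, 129 and 109 CPM at day 2, and 88.7 and 73.1 CPM at day 4. In KO it was at 128 and 155 CPM at day 0, 148 and 212 CPM at day 2, and 183 and 218 CPM at day 4. The genotypes overlapped at day 0, and both KO libraries lay above both WT libraries at days 2 and 4. At day 4 Bcl2l11 was 2.48-fold higher in KO (log2 fold change 1.31 ± 0.21, edgeR adjusted p = 0.00368), with the call held when each library was left out, while the day 2 difference of 0.59 ± 0.21 was not called (edgeR adjusted p = 0.133). The interaction from day 0 to day 4 was 1.21 ± 0.30 (edgeR adjusted p = 0.0424), and it ran from 0.022 to 0.159 with libraries left out one at a time. In WT it fell by 0.71 ± 0.21 on the log2 scale from day 0 to day 4 (edgeR adjusted p = 0.0184), but on log2(TPM + 1) by 0.23 (limma adjusted p = 0.239). The count-based fall was lost without WT day 0 replicate 1 (adjusted p = 0.0914, edgeR) or WT day 4 replicate 2 (0.118).

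Pmaip1, which encodes NOXA, peaked at day 2 in both genotypes. It was at 13.3 and 16.6 CPM in WT at day 0, 44.9 and 67.5 CPM at day 2, and 10.4 and 13.7 CPM at day 4. The KO libraries gave 18.3 and 21.5 CPM, then 99.3 and 147 CPM, then 25.5 and 73.0 CPM. Both KO libraries were above both WT libraries at each day, and the KO replicates of day 4 differed 2.86-fold, the widest gap between replicates of any of the 10 genes. Pmaip1 rose from day 0 to day 2 by 3.76-fold in WT (log2 fold change 1.91 ± 0.47, edgeR adjusted p = 0.0287) and by 6.19-fold in KO (2.63 ± 0.48, edgeR adjusted p = 0.0219).

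The Pmaip1 rise was lost in WT when any of the 4 WT libraries of days 0 and 2 was left out (adjusted p up to 0.141 in edgeR, without WT day 2 replicate 2) or either KO day 0 library (0.0501 and 0.0503). In KO it was lost when any of the 4 KO libraries of those days was left out (up to 0.165, without KO day 0 replicate 2). The fall in WT from day 2 to day 4, -2.22 ± 0.47 on the log2 scale with an edgeR adjusted p of 0.00534, held with each library left out. At day 4 Pmaip1 was 4.07-fold higher in KO (2.03 ± 0.47, edgeR adjusted p = 0.017). Without WT day 4 replicate 1 the adjusted p was 0.107, without WT day 4 replicate 2 it was 0.0813, and without KO day 4 replicate 2 it was 0.0698 (edgeR). In KO, the day 4 level was above day 0 (1.31 ± 0.46, edgeR adjusted p = 0.0479) and below day 2 (-1.32 ± 0.45, 0.0452), and each of these calls was lost under 13 of 18 alternatives.

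Bbc3, which encodes the p53 target PUMA, was at 22.2 and 18.5 CPM in WT at day 0, 4.05 and 6.20 CPM at day 2, and 11.5 and 11.5 CPM at day 4. In KO it was at 13.6 and 13.6 CPM at day 0, 7.13 and 8.05 CPM at day 2, and 6.71 and 13.6 CPM at day 4. Day 2 was the lowest WT group, with no overlap with the other days. In WT, Bbc3 fell 3.97-fold from day 0 to day 2 (log2 fold change -1.99 ± 0.33, edgeR adjusted p = 0.00749, 0.0618 without WT day 2 replicate 1) and rose 2.25-fold from day 2 to day 4 (1.17 ± 0.33, edgeR adjusted p = 0.0167). The rise was lost without WT day 2 replicate 1 (adjusted p = 0.114, edgeR), WT day 4 replicate 1 (0.0592) or WT day 4 replicate 2 (0.0582). On log2(TPM + 1) with limma the fall was -1.11 with an adjusted p of 0.0965 and the rise 0.94 with an adjusted p of 0.0843. The TPM given per CPM varied 2.02-fold for Bbc3 between libraries with at least 5 CPM of it, which leaves out WT day 2 replicate 1. The median was 1.10-fold over 8127 genes with at least 5 CPM in every library, a set without Bbc3. Of those genes 1.78% varied as much. No KO difference was called for Bbc3, and its sign differed by day (-0.58 ± 0.32, 0.57 ± 0.33 and -0.18 ± 0.32 on the log2 scale).

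Bid and Bad, whose products are switched on by cleavage and by loss of phosphorylation, were the steadiest of the BH3-only mRNAs. Bid was at 23.1 and 31.8 CPM, 25.1 and 24.8 CPM, and 37.3 and 27.7 CPM in WT at days 0, 2 and 4, and at 30.9 and 25.7 CPM, 16.8 and 16.4 CPM, and 32.1 and 31.1 CPM in KO. The KO libraries of day 2 were the lowest of the 12. From there Bid rose 1.91-fold to day 4 in KO (log2 fold change 0.93 ± 0.19, edgeR adjusted p = 0.00483), a call that held with each library left out. The difference between genotypes at day 2 was -0.59 ± 0.19 (edgeR adjusted p = 0.108, DESeq2 0.0456). Bad stayed between 19.4 and 30.6 CPM in all 12 libraries and was called in none of the 11 comparisons with edgeR.

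**Figure D2:**
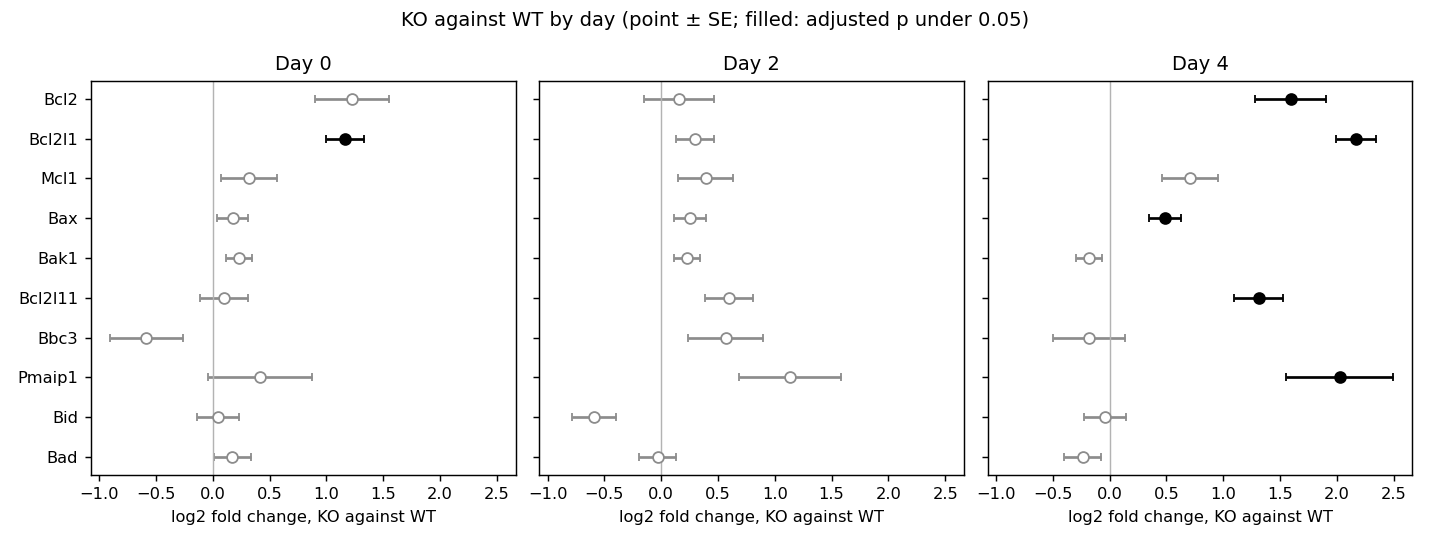
Log2 fold change of KO against WT (x axis) for the 10 genes (y axis) at days 0, 2 and 4; bars are the SE from the edgeR fit of 12 libraries and filled points have an adjusted p under 0.05. Bcl2l1 is filled at days 0 and 4, no gene is filled at day 2, and Bcl2, Bax, Bcl2l11 and Pmaip1 are filled at day 4.

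At day 4, 5 of the 10 genes were called higher in KO and none lower, where 14.5% of all tested genes were called higher, 11.1% lower and 25.6% in either direction. They included 2 survival genes (Bcl2l1 and Bcl2), 1 effector (Bax) and 2 BH3-only genes (Bcl2l11 and Pmaip1). Both KO libraries lay outside both WT libraries for 7 of the 10, as for 66.5% of all tested genes. The median log2 fold change of the 10 was 0.60, and that of all tested genes -0.03. With the 4 day 4 libraries fitted alone, none of the 5 calls remained (edgeR adjusted p from 0.0632 for Bcl2l1 to 0.15 for Bax), and of all tested genes 2 were called. An exact permutation test of 2 against 2 libraries cannot go below p = 0.333, so each call rests on the spread estimated over genes and over all 12 libraries. In these 4 libraries the summed osteoclast markers were lower in both KO libraries and the summed macrophage markers higher, with 5 of the 10 osteoclast markers called lower, and 7 macrophage markers called higher and 1 lower. Their part in the 5 calls was not tested.

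At day 2 no member was called with edgeR, where 4.52% of tested genes were. Both KO libraries lay outside both WT libraries for 8 of the 10, as for 63.2% of all tested genes. In edgeR, 3 members had an unadjusted p under 0.05. This cut is looser than that of the calls, and its share of all tested genes was not counted. DESeq2 called 1, Bid, where it called 12.8% of all tested genes. Leaving out KO day 4 replicate 1 or 2 gave Pmaip1 an adjusted p of 0.0316 or 0.0314 in edgeR, in fits that called 1719 and 1708 of all tested genes rather than 577. No member was called for an interaction between genotype and the step from day 0 to day 2 with edgeR or DESeq2. For that interaction edgeR called 0.00783% of tested genes. An unadjusted p under 0.05 was found for 4 members in edgeR, and its share of all tested genes was not counted here either.

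Over time, calls among the 10 were set against those of all tested genes. In WT, 4 of the 10 were called from day 0 to day 2, where 17.3% of tested genes were called, 4 from day 0 to day 4, where 56.8% were, and 5 from day 2 to day 4, where 51.8% were. In KO, 1 was called from day 0 to day 2 (4.74% of tested genes), 3 from day 0 to day 4 (44.6%) and 3 from day 2 to day 4 (42.7%). The WT calls from day 0 to day 2 were Bcl2, Bcl2l1 and Pmaip1 higher and Bbc3 lower. The comparisons within a genotype share libraries with each other and with the comparisons between genotypes.

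The balance of mRNAs within the family was described by TPM. The BH3-only genes summed to 156 and 153 TPM in WT at day 4 and to 199 and 252 TPM in KO at day 4, and the survival genes to 278 and 272 TPM and to 406 and 563 TPM. Both sums were higher in both KO libraries. They cover the 10 members only and leave out other family genes, such as the BH3-only gene Bmf. With the other listed survival genes of the family added, the survival sum was 529 and 475 TPM in WT at day 4. In KO at day 4 it was 680 and 882 TPM. Bcl2l11 made up 26.9% and 26.8% of the BH3-only TPM in WT at day 4 and 47.8% and 40.2% in KO. The TPM of Bcl2l11 divided by that of Bcl2l1 was 2.07 and 1.65 in WT at day 0, 0.989 and 0.997 at day 2, and 2.91 and 3.61 at day 4. In KO the ratio was 0.822 and 1.17, then 1.07 and 1.74, then 1.54 and 1.57. By TPM it was thus highest in WT at day 4, and the KO libraries of day 4 lay below both although both mRNAs were higher there. The ratio of 3.61 is raised by the length estimates of WT day 4 replicate 2. Relative to each library's median, TPM per CPM was there the highest of the 12 libraries for Bcl2l11 (0.770). For Bcl2l1 it was the lowest (1.27). These sums and ratios were not tested.

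**Figure D3:**
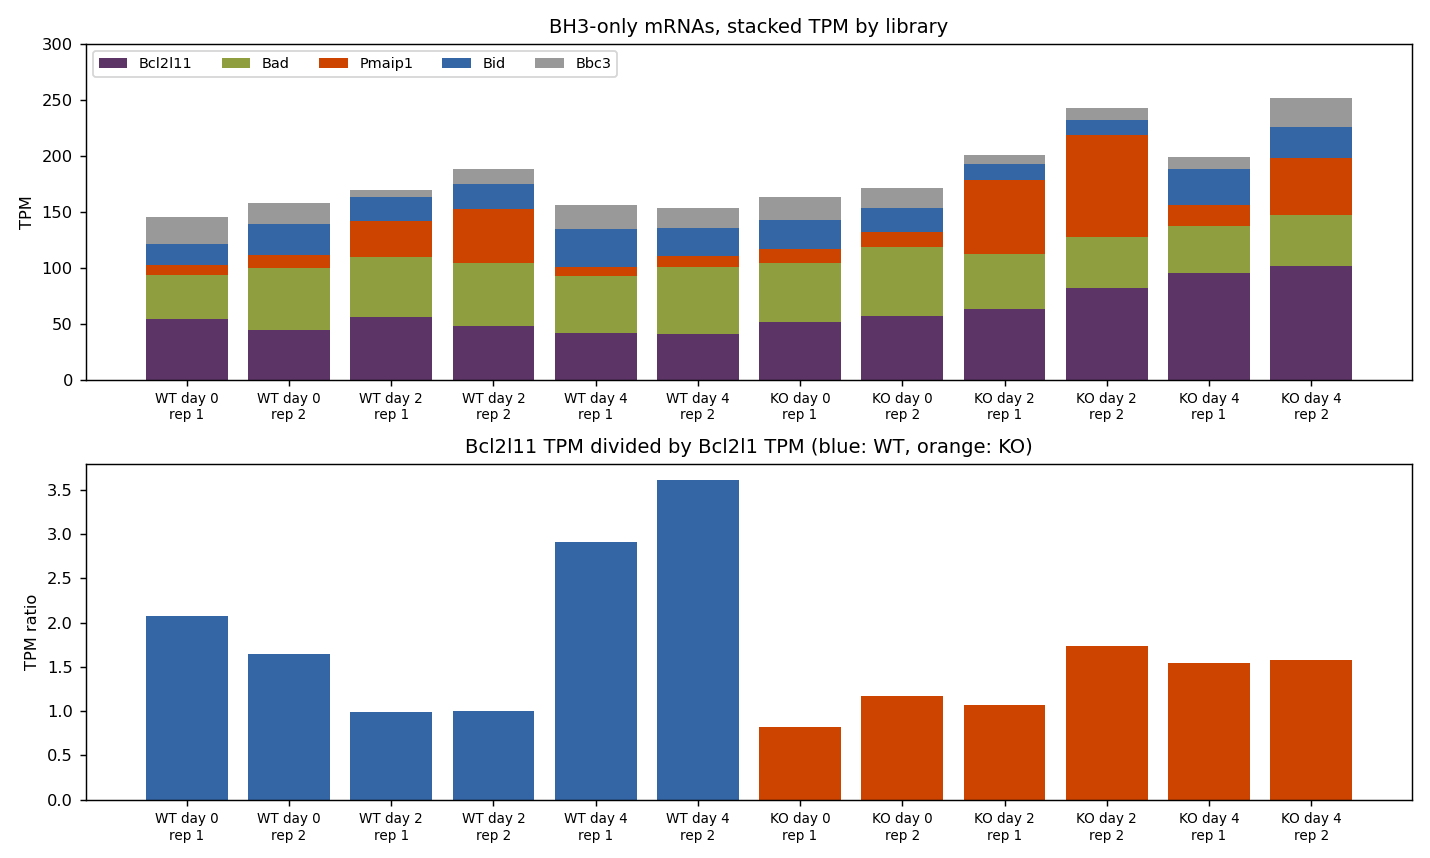
Upper panel: TPM of the 5 BH3-only mRNAs stacked for each of the 12 libraries (y axis, TPM, from 0). Lower panel: TPM of Bcl2l11 divided by TPM of Bcl2l1 in each library, WT in blue and KO in orange. The Pmaip1 segment is widest at day 2, the Bcl2l11 segment at day 4 in KO, and the ratio reaches 2.91 and 3.61 in WT at day 4.

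The rest of the apoptosis pathway was mixed at day 4. Of the other survival genes, Bcl2l2 was not called and Bcl2a1b, a survival gene with near-identical copies between which reads may be split, was higher in KO (log2 fold change 1.18 ± 0.33, edgeR adjusted p = 0.0343); its value is uncertain for that reason. Of 7 tested further BCL2 family genes 1 was higher and 2 lower in KO. Bmf, a BH3-only gene, was at 17.4 and 20.5 CPM in WT and 55.8 and 105 CPM in KO (2.09 ± 0.30, edgeR adjusted p = 0.00238). Bnip3l and Bnip3, which act in mitochondrial autophagy, were lower (-0.91 ± 0.11 and -0.83 ± 0.26).

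Downstream of the pore, 1 of 9 apoptosome and mitochondrial release genes was called higher in KO at day 4 and 4 lower. Apaf1, the scaffold of the apoptosome, was the higher one (log2 fold change 0.92 ± 0.17), and the lower ones included Aifm1 (-0.78 ± 0.14) and Vdac2 (-0.56 ± 0.13), which encode a mitochondrial flavoprotein and an outer-membrane channel. Casp2, which encodes an initiator caspase, was higher (0.48 ± 0.12). Of 5 inhibitor of apoptosis genes Birc2 and Birc3 were higher (1.10 ± 0.34 and 0.75 ± 0.20) and Xiap lower (-0.43 ± 0.11).

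Of 7 tested death receptor genes, 2 were called higher in KO at day 4 and none lower. Fas, the receptor, was at 3.04 and 1.90 CPM in WT and 6.81 and 12.2 CPM in KO (log2 fold change 1.94 ± 0.39, edgeR adjusted p = 0.00853), and Cflar, an inhibitor of caspase-8 activation, was at 91.7 and 97.1 CPM in WT and 166 and 277 CPM in KO (1.23 ± 0.21, 0.00464). Of 12 tested upstream regulators 2 were higher and 3 lower, with E2f1 at 0.76 ± 0.11, Pim3, a kinase that phosphorylates BAD, at -0.56 ± 0.12 and the stress factor Atf4 at -1.10 ± 0.19. Of 8 p53 target genes 2 were higher, Cdkn1a at 1.98 ± 0.39 and Zmat3 at 0.94 ± 0.28, and 1 lower, Sesn2 at -1.18 ± 0.16. At the earlier days, Pim3 was called lower in KO at day 0 (-0.71 ± 0.13) and Aifm1 at day 2 (-0.75 ± 0.15).

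**Figure D4:**
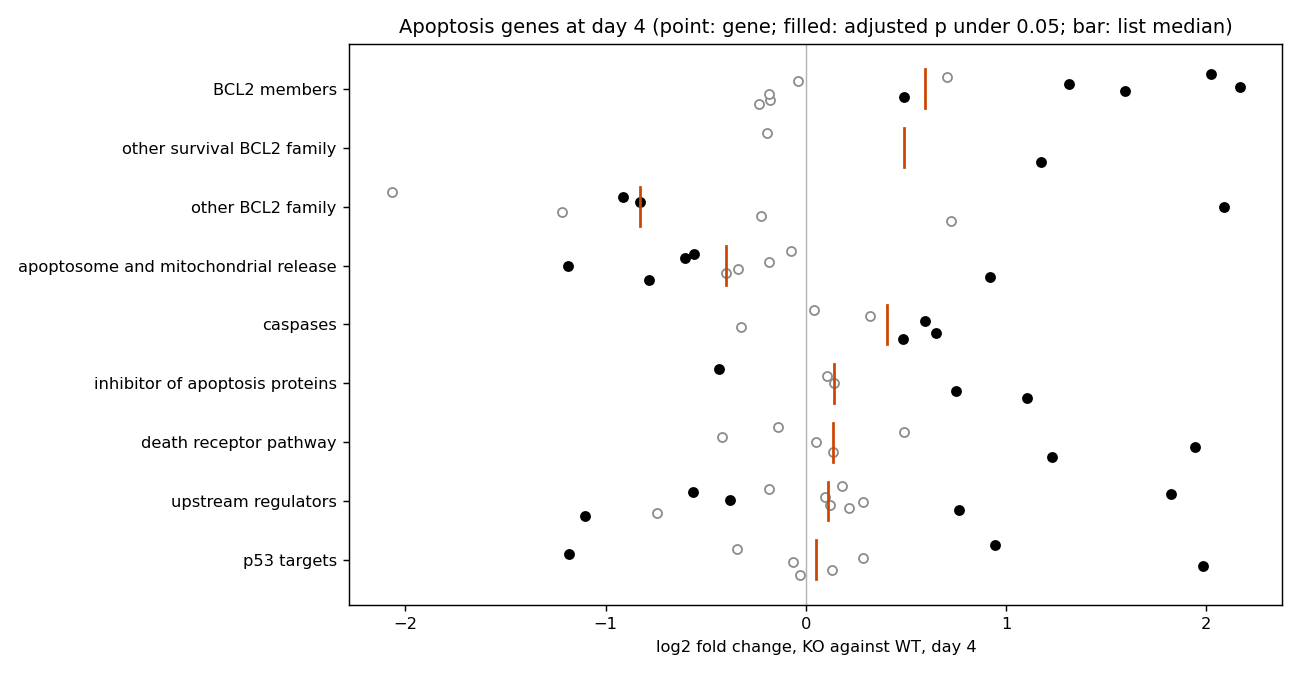
Log2 fold change of KO against WT at day 4 (x axis) for the 10 BCL2 members and 8 lists of other apoptosis genes (rows); each point is 1 tested gene, filled where the edgeR adjusted p is under 0.05, and the bar is the median of the list. The members have a median of 0.60, and the apoptosome and mitochondrial release genes one of -0.40.

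In WT from day 0 to day 4, all 9 apoptosome and mitochondrial release genes were called, 8 higher, among them Cycs, which encodes cytochrome c (log2 fold change 3.34 ± 0.20), Htra2 (1.68 ± 0.13) and Vdac3 (1.06 ± 0.10). Of the initiator caspase genes, Casp2 fell by 1.27 ± 0.12 and Casp9 by 0.48 ± 0.12 on the log2 scale. Of the 7 death receptor genes 4 were lower and none higher, with Fas at -3.04 ± 0.40, Tnfrsf1a at -0.97 ± 0.19 and Ripk1 at -0.77 ± 0.11. Over all tested genes, 29.1% were called higher and 27.6% lower in this comparison.

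The genes whose levels ran closest to those of Bcl2l1, Bcl2l11 and Bcl2 were sought among 12346 genes. The measure was the root mean square difference of centred log2(CPM + 0.5) over the 6 group means. Closest to Bcl2l1 were Dock4 (0.16), Gda (0.18), Serpinb9 (0.19), Slpi (0.20) and Etv3 (0.21). Closest to Bcl2l11 were Ift57 (0.098), Cflar (0.12), Mtmr6 (0.12), Adam17 (0.13) and Ddx4 (0.13). Closest to Bcl2 were Susd2 (0.17), Dtnb (0.23), Dst (0.23), Adam8 (0.26) and Hmcn2 (0.27). This likeness covers 6 points only.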

How the data were processed

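RNA was measured in 12 of the 37 samples; the ATAC-seq and CUT&Tag samples were not analysed here. The authors deposited expected counts per gene, given as whole numbers, and TPM. Per the submitters' processing notes, the tools named include RSEM 1.3.1, STAR 2.7.3a, Trim Galore 0.6.1 and DESeq2. Builds mm10 and mm9 both appear in those notes; which served RNA-seq, and the gene models and strand setting used, are not given in the sources used here. RSEM divides reads among similar genes, which can shift near-identical copies. The free-text design names osteoblasts where the labels name osteoclasts; the labels were followed. Groups, days and replicate numbers came from the labels.

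One model of the 6 groups was fitted to the counts of all 12 libraries (R 4.3.3, edgeR 4.0.16). It used TMM factors, filterByExpr at its minimum count of 10, and the robust quasi-likelihood F test, two-sided. Calls are at a Benjamini-Hochberg adjusted p under 0.05 over 12774 genes. The SE is the log2 fold change divided by the square root of F. There were 11 comparisons: KO against WT at each day, each pair of days in each genotype, and the 2 interactions of genotype with days 2 and 4. Alternatives were DESeq2 1.42.0, its size factors in edgeR, no filter, limma 3.58.1 on log2(TPM + 1), a replicate block, the libraries of each comparison fitted alone, and each library left out. No replicate pair was a duplicate: the chi-square per degree of freedom between replicates ran from 13.1 to 107.

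The members, the 8 pathway lists, the marker lists and the tests were chosen with earlier results of these data known, so counts over them are descriptions. Named genes are the 10 members, Arid1a, up to 3 genes with the smallest adjusted p per pathway list and comparison, and the 5 nearest patterns of 3 called members; Lyz2 was added after its values were seen. Promoter sequences are from RefSeq, GRCm38.p6, and the coordinates belong to that build. Some genes of the caspase and erythroid lists are not reported here.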

Additional observations from a re-analysis of the deposited data

Results flagged for a closer look

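For some members the change over time or the KO difference took opposite directions or differed by test. Values are differences of log2 fold changes. How many of all tested genes did the same was not counted. In KO against WT, groups did not overlap for 63.2% of all tested genes at day 2 and 66.5% at day 4. The KO effect of day 4 exceeded that of day 0 by 1.005 for Bcl2l1 and by 1.21 for Bcl2l11. Both were called by the edgeR interaction test (adjusted p = 0.0391 and 0.0424), as were 8.56% of all tested genes. The Bcl2l1 and Bcl2l11 calls were each lost under 10 of 18 alternatives. For Bcl2l11 every KO library of day 4 lay above those of day 0 and every WT library of day 4 below those of day 0, which is the same difference of 1.21. Bcl2 was higher at day 4 than at day 2 in both KO libraries and lower in both WT libraries, a difference of 1.43 that was not tested. In CPM, Bak1 was under WT in both KO libraries at day 4 and over WT in both at days 0 and 2. Its difference from day 0 to day 4 was -0.41 (edgeR interaction, adjusted p = 0.142), and that from day 2 to day 4 was -0.41, which was not tested. By TPM the genotypes overlapped for Bak1 at days 0 and 2. The values were 38.4 and 45.2 TPM in WT and 43.8 and 51.6 TPM in KO at day 0. At day 2 they were 52.5 and 63.2 TPM in WT and 73.4 and 56.4 TPM in KO. In CPM, Bbc3 was lower in both KO libraries at day 0 and higher in both at day 2. That difference of 1.15 was not called (edgeR interaction, adjusted p = 0.508). By TPM the genotypes overlapped for Bbc3 at both days. The values were 24.7 and 19.17 TPM in WT and 20.44 and 17.65 TPM in KO at day 0. At day 2 they were 6.58 and 13.7 TPM in WT and 8.78 and 11.34 TPM in KO.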

How the results depend on the processing

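Of 946 alternatives to 52 member results, 827 kept direction and side of the threshold, 102 lost a call, 7 gained one and 10 changed sign. The 102 are all of called results, and the 827 include uncalled ones. With 1 library left out, log2 fold changes of KO against WT that took both signs ran, at day 0, from -0.061 to 0.25 for Bcl2l11 (below 0 without WT day 0 replicate 2, and -0.053 without KO day 0 replicate 2), from -0.19 to 0.30 for Bid (below 0 without WT day 0 replicate 1, and -0.11 without KO day 0 replicate 1) and from -0.016 to 0.36 for Bad (below 0 without WT day 0 replicate 1). They ran at day 2 from -0.076 to 0.40 for Bcl2 (below 0 without KO day 2 replicate 1, and -0.056 without WT day 2 replicate 2), and at day 4 from -0.78 to 0.24 for Bbc3 (above 0 without KO day 4 replicate 1) and from -0.24 to 0.19 for Bid (above 0 without WT day 4 replicate 1, and 0.0056 with limma on TPM). None of these was called, and the cause was not tested.

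Members called for KO against WT numbered 1 at day 0, 0 at day 2 and 5 at day 4. DESeq2 called 2 at day 0 and 1 at day 2; the libraries of the comparison fitted alone gave 0 at day 0 and 0 at day 4. With 1 library left out the ranges were 0 to 1, 0 to 1 and 2 to 6. In WT the left-out ranges were 0 to 4 from day 0 to day 2, 2 to 6 from day 0 to day 4 (2 with limma on TPM) and 3 to 6 from day 2 to day 4 (7 with DESeq2, with its size factors in edgeR and with the libraries fitted alone, against 5). In KO they were 0 to 2 (2 with DESeq2), 1 to 3 and 2 to 4. For the interactions they were 0 to 0 at day 2 and 0 to 3 at day 4, where the libraries fitted alone gave 0. Leaving out a library leaves 1 in its group, assumed to vary like the others.

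The labels do not say what a replicate number marks, and with 2 per group no block was used for the reported calls. The replicate differences of same-numbered libraries correlated positively in all 6 comparisons within a genotype, from 0.114 to 0.526, and at -0.317, -0.0557 and -0.06 between genotypes at days 0, 2 and 4. With the replicate block, 1 member rather than 2 kept a called interaction at day 4 (Bcl2l11, adjusted p = 0.0566 in edgeR, was lost). The block raised the members called from 4 to 5 for WT from day 0 to day 4, from 5 to 6 for WT from day 2 to day 4 and from 3 to 4 for KO from day 0 to day 4. In a crossed pairing at day 0, chosen after seeing the data, 3 of all genes and 0 members were called.

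Counts over all genes moved by more than 1.5 times in some fits. DESeq2 called 754 rather than 202 genes for KO against WT at day 0, 1634 rather than 577 at day 2, 1320 rather than 606 for KO from day 0 to day 2, and 101 rather than 1 and 2079 rather than 1094 for the interactions. The libraries of each comparison alone gave 7 at day 0, 1005 at day 2 and 2 rather than 3271 at day 4 for KO against WT, and 1322 rather than 2211 for WT from day 0 to day 2. They gave 3584 rather than 5701 and 2458 rather than 5459 for KO at day 4 against days 0 and 2, and 226 for the interaction at day 4. On log2(TPM + 1), 65.8% rather than 46.5% of calls were higher in WT from day 0 to day 2, 48.8% rather than 68.5% for KO against WT at day 2, and 62.1% rather than 51.8% for KO from day 2 to day 4; the median of all genes was 0.10, -0.12 and -0.13 for WT at day 2, KO against WT at day 2 and the interaction at day 2. With 1 library left out, the genes called for KO against WT ran from 2 to 459 at day 0, from 1 to 1719 at day 2 and from 1118 to 4457 at day 4. They ran from 0 to 18 and from 141 to 2989 for the interactions of days 2 and 4, from 473 to 3265 for WT and from 122 to 1058 for KO from day 0 to day 2, so the background shares moved as well.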
